A study of Mus musculus with 9 samples.

Results

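Gene expression in BV2 cells transfected with an siRNA against Nus1, numbered 878, was set against that in control cells of the same line across all genes of the deposited table. BV2 is an immortalised line of mouse microglia, the resident macrophages of the brain. The comparison rests on 6 of the 9 libraries of the series, taken by their titles, with 3 libraries of siRNA 878 and 3 labelled NC. Of 16398 genes in the table, 11739 had enough counts to be tested. The 878 cells carried the genotype label Nus1 knockdown and were in contact with siRNA and the lipid reagent RNAiMAX for 24 h, then kept in fresh serum-containing medium for another 24 h. The NC cells carried the genotype label WT, and the labels do not say which siRNA or reagent they received. RNA was harvested 48 h after the start of the treatment, and 2 µg of total RNA went into each mRNA library. A further 3 libraries of a different siRNA against Nus1, numbered 644, entered the same fit and shared its estimate of spread. The cells are 1 established line, and the sequence of siRNA 878 is not given in the sources used here. The labels call the replicates biological but do not mention separate transfections, and the p-values therefore cover the spread among these libraries, which may be technical. In bulk RNA, fewer cells of a kind and less RNA per cell cannot be told apart.

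Nus1 encodes the regulatory subunit of cis-prenyltransferase, which works with the catalytic subunit Dhdds to build the long lipid chain of dolichol. Dolichol phosphate carries the sugar tree that the oligosaccharyltransferase moves onto asparagines of proteins as they enter the endoplasmic reticulum (ER). Proteins that do not fold in the ER bind the chaperone BiP, encoded by Hspa5, and the sensors encoded by Ern1, Eif2ak3 and Atf6 then start the unfolded protein response. That response raises chaperones, disulfide isomerases and the machinery that removes misfolded proteins, and its Eif2ak3 arm slows translation while raising the transcription factors ATF4 and CHOP.

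The libraries held between 19362292 and 20224686 estimated counts each, and between 14020 and 14151 genes were detected in the 6 libraries compared. Replicate 2 of siRNA 878 stood apart from the other libraries. Its log2 values differed from the mean of the other 878 libraries with an SD of 0.545 over 9224 genes, while replicates 1 and 3 differed from their group mates with SDs of 0.212 and 0.359. The NC libraries had SDs of 0.138, 0.214 and 0.166. In replicate 2, 39 genes lay more than 2-fold above and 480 more than 2-fold below the other 878 libraries. The corresponding totals were 9 and 66 for 878 replicates 1 and 3, and 6, 7 and 6 for the NC libraries. Each library was set against the mean of its group mates. An uneven replicate 2 therefore also raises the SDs and totals of replicates 1 and 3. Replicate 2 correlated with 878 replicates 1 and 3 at 0.9748 and 0.9652, whereas those correlated with each other at 0.9938. It was closer to 644 replicates 1 and 3, at 0.987 and 0.9841. Its correlations with the NC libraries lay between 0.9419 and 0.9569, so it was no closer to the controls than to the cells of its own group.

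The deviation of replicate 2 followed base composition and transcript length. Across genes its Spearman correlation was 0.656 with GC content and -0.525 with transcript length, given here as a description since genes are not independent replicates. The genes more than 2-fold above its mates had a median GC content of 58.02% and a median length of 1417 bases. Those more than 2-fold below had 42.69% and 5294.5 bases, beside 49.69% and 3462 bases for all 9224 genes. GC-rich short transcripts were therefore high in replicate 2 and AT-rich long ones low. In the lowest of 10 bins of GC content the median deviation was -0.564 for replicate 2, beside 0.197 and 0.377 for replicates 1 and 3. In the highest bin it was 0.556, beside -0.185 and -0.362. NC replicate 2 leaned the same way by less, at -0.167 and 0.173, and the other NC libraries stayed within 0.117 of 0 at both ends. What made the libraries differ in this way was not tested. The largest gaps were those of Marchf7, a ubiquitin ligase, at 25.9, 4.63 and 32.5 CPM in 878 replicates 1, 2 and 3, and of Cpeb4, an mRNA-binding protein, at 44.1, 11.9 and 61.9 CPM. Ccne2, a cyclin of the entry into S phase, was at 11.1, 2.09 and 13.3 CPM. Each of these was much lower in replicate 2 than in its mates and was not called between 878 and NC, with adjusted p of 0.667, 0.892 and 0.538.

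**Figure D1:**
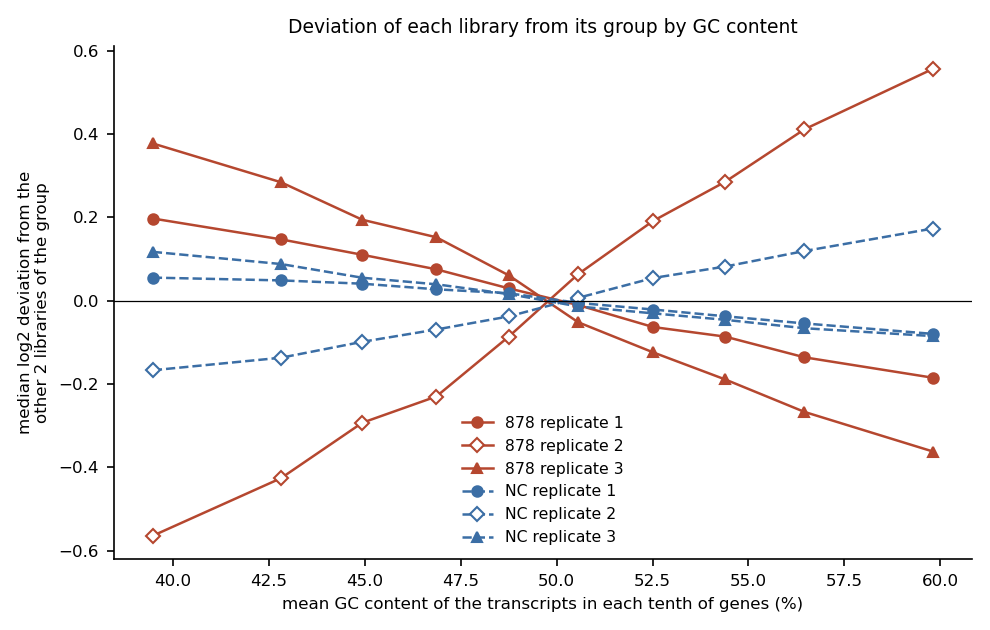
Median log2 deviation of each library from the mean of the other libraries of its group (y axis), by 10 bins of genes ordered by GC content (x axis, 916 or 917 genes in each), for 3 libraries of siRNA 878 and 3 of NC. Replicate 2 of siRNA 878 runs from -0.564 in the lowest bin to 0.556 in the highest. Its mates run the other way, as they must together, since the deviations of a group sum to 0 for each gene. The NC libraries stay within 0.173 of 0 at both ends.

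Nus1 was measured first, since it checks the labels. Its level in CPM, the estimated count as parts per 1e6 of the TMM-scaled library, was 8.01, 3.73 and 8.35 CPM in the 878 libraries, against 51.4, 50.1 and 53.4 CPM in the NC libraries (gene 52014, chromosome 10, 52417547 to 52440192, GRCm38 coordinates of the table). Every 878 library was far below every NC library, and replicate 2 was the lowest of its group. Nus1 fell by 2.94 on the log2 scale (SE 0.251), with adjusted p = 6.43e-05 (edgeR's quasi-likelihood test, adjusted over all genes by Benjamini-Hochberg). Without replicate 2 it fell by 2.65 (adjusted p = 1.53e-07). Dhdds, its catalytic partner, was at 57.2, 59.4 and 53.9 CPM in the 878 libraries, against 44.1, 48.01 and 43.7 CPM in the NC libraries. Its log2 fold change was 0.33 (SE 0.0784, adjusted p = 0.0125), a call that was lost without NC replicate 1 or NC replicate 3 (adjusted p = 0.057 and 0.0576).

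The line's identity was checked with 12 markers of microglia and macrophages, all of which had enough counts to be tested. Their summed level was between 2876 and 3504 CPM in the 878 libraries and between 3138 and 3409 CPM in the NC libraries. Markers of astrocytes, neurons, oligodendrocytes, endothelial cells and fibroblasts summed to at most 5.69 CPM per list, and no astrocyte or fibroblast marker had enough counts to be tested. At an adjusted p under 0.05, 1 of the 12 microglial markers was called higher and 4 lower, 5 in all, beside 31.5% of all genes tested. That number was 2 without NC replicate 3 and 3 without NC replicate 1 or 2, 644 replicate 3 or 878 replicate 1 or 3. The lower ones include Cx3cr1, described further on, and Aif1, a calcium-binding protein of microglia, which was at 4.31, 4.69 and 2.82 CPM in the 878 libraries, against 8.397, 9.87 and 8.09 CPM in the NC libraries. No 878 library of Aif1 reached the NC values, and its log2 fold change was -1.16 (SE 0.202, adjusted p = 0.0026). Csf1r, the receptor that microglia need to survive, and Trem2, a lipid-sensing receptor, were not called. Csf1r was at 335, 410.5 and 325 CPM in the 878 libraries, against 296, 309 and 311 CPM in the NC libraries, and Trem2 was at 276, 445 and 254 CPM in the 878 libraries, against 234, 272 and 217 CPM in the NC libraries. P2ry12 and Tmem119, which mark resting microglia in the brain, were near the lower end of what can be measured, with 878 means of 0.960 and 2.61 CPM and NC means of 1.47 and 2.53 CPM.

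In all, 3696 of 11739 genes were called between 878 and NC at an adjusted p under 0.05, or 31.5% of those tested. Of these, 1881 were higher (16.0% of those tested) and 1815 lower (15.5%), and 787 changed by at least 2-fold, 401 upward and 386 downward. The median log2 fold change over all genes tested was 0.00381. The 3 libraries of 878 did not overlap the 3 of NC in 5299 genes, or 45.1%. The genes of largest change are given last, after the groups of genes by their roles.

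**Figure D2:**
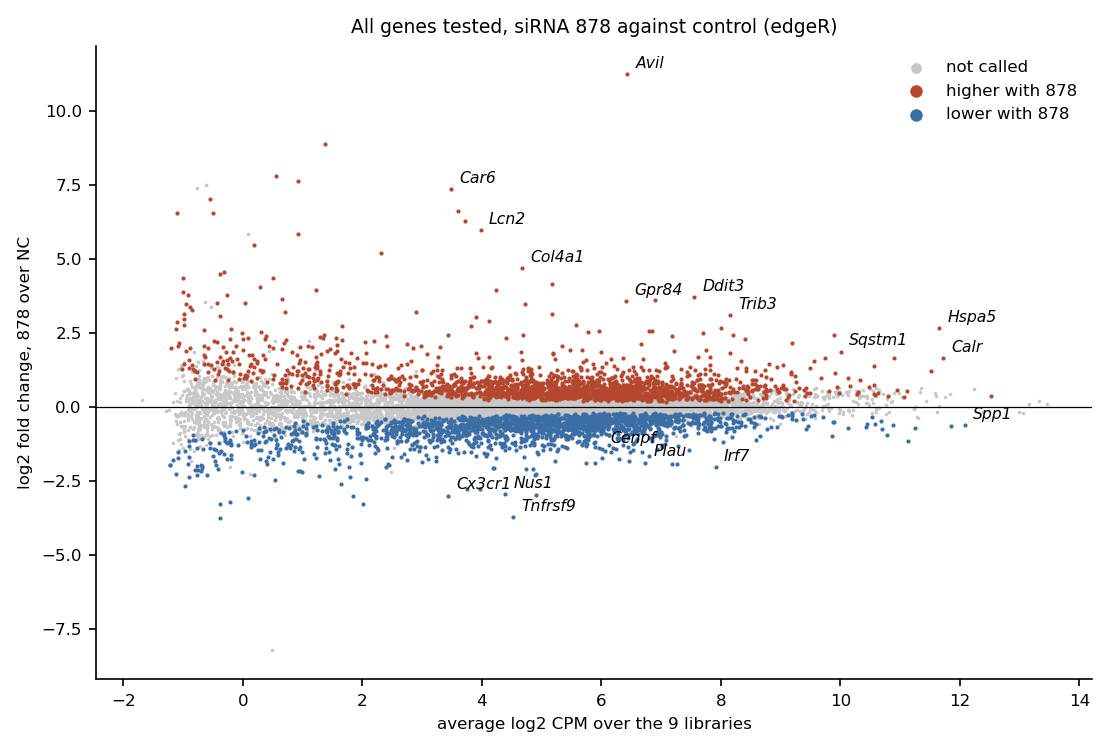
Log2 fold change of siRNA 878 over NC (y axis) against average log2 CPM (x axis) for 11739 genes, with genes called at an adjusted p under 0.05 coloured by direction and some genes labelled. The 1881 higher and 1815 lower genes lie about evenly on either side of 0, and the far upper and lower points include Avil, Lcn2, Ddit3, Nus1 and Cx3cr1.

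Most of the ER chaperones were higher. Of 15 tested members of the list of BiP and its cochaperones, 12 rose and none fell, with a median log2 fold change of 1.69 beside 0.00381 for all genes. Hspa5, which encodes BiP, was at 4429.8, 3990.3 and 4624 CPM in the 878 libraries, against 736, 644 and 680.1 CPM in the NC libraries (gene 14828, chromosome 2, 34772090 to 34776529, where its end overlaps that of Rabepk by 1921 bases). Even the lowest 878 library was several times the highest NC library. Creld2, an ER protein induced by misfolding, was at 332, 409 and 325 CPM in the 878 libraries, against 54.9, 57.6 and 54.1 CPM in the NC libraries. Dnajc3, a J-domain partner of BiP, was at 211, 205 and 227 CPM in the 878 libraries, against 43.7, 35.7 and 41.6 CPM in the NC libraries. The groups were far apart for each, and their log2 fold changes were 2.66 (SE 0.0992, adjusted p = 1.05e-06) for Hspa5, 2.68 (SE 0.114, adjusted p = 1.81e-06) for Creld2 and 2.41 (SE 0.0934, adjusted p = 1.14e-06) for Dnajc3. Hyou1, a large chaperone that exchanges the nucleotide of BiP, rose by 2.44 (SE 0.0882), Sdf2l1, a component of the same chaperone complex, by 2.32 (SE 0.18) and Manf, a secreted protein kept in the ER by BiP, by 2.17 (SE 0.111). Hsp90b1, the HSP90 of the ER, was at 2655, 2134 and 2805 CPM in the 878 libraries, against 863, 767 and 799.9 CPM in the NC libraries and rose by 1.64 (SE 0.114).

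Promoter sequence is shown for the chaperones because a motif of the unfolded protein response occurs in them. The ER stress response element was searched as the letters CCAAT and CCACG 9 bases apart, on both strands, in RefSeq promoters of GRCm38.p6 that span 250 bases before to 50 bases after the start of each gene. It was present in 4 of the 12 promoters found for tested members of the chaperone list (33.3%), beside 14 of 9485 promoters of tested genes (0.148%) and 37 of 27025 promoters in all (0.137%). The stretches below, on the strand of each gene, hold the match in capitals and lie at chr15:88819494-88819563 (plus strand) for Creld2, chr2:34771999-34772068 (plus) for Hspa5, chr14:118937801-118937870 (plus) for Dnajc3 and chr10:86705508-86705577 (minus) for Hsp90b1. The element reads forward in Hspa5 and Dnajc3 and on the opposite strand in Creld2 and Hsp90b1.
Creld2: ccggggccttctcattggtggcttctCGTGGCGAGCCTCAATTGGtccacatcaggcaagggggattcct
Hspa5: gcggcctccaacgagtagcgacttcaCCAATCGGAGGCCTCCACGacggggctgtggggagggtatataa
Dnajc3: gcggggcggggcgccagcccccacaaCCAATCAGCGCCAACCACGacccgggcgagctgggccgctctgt
Hsp90b1: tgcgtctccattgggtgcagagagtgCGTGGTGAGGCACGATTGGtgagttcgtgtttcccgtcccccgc

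Of the 14 tested genes with the element, 10 were called higher (71.4%), beside 16.0% of all genes tested, and 1 lower. Besides the 4 shown, the higher ones were Adcy3, Syvn1, Pdia6, Calr, Alg12 and Ero1b. Creld2 and Alg12 lie head to head, and the match from 88819520 to 88819538 on chromosome 15 falls in the promoter of each. Alg12, a mannosyltransferase that extends the sugar tree on dolichol, was at 33.2, 34.97 and 32.5 CPM in the 878 libraries, against 11.9, 10.9 and 10.7 CPM in the NC libraries and rose by 1.59 (SE 0.0847). Adcy3, an adenylyl cyclase, is no chaperone and was low in both groups, at 2.88, 2.49 and 2.52 CPM in the 878 libraries, against 0.720, 0.687 and 0.482 CPM in the NC libraries, yet it rose by 2.05 (SE 0.192). The gene called lower was Hnrnpa3, an RNA-binding protein, at -0.50, and Canx, Pan2 and Acnat2 were not called. A match gives the letters only and does not show that a factor binds there.

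Most disulfide isomerases and the lectin chaperone Calr rose with BiP. Of 17 tested members of the isomerase list, 11 rose and 1 fell, with a median of 0.882. Pdia6 was at 1126, 1166 and 1158 CPM in the 878 libraries, against 364, 372 and 361 CPM in the NC libraries, with hardly any spread within either group, and rose by 1.65 (SE 0.0663). Pdia3, which folds glycoproteins held by the lectin chaperones, rose by 1.40 (SE 0.0872), and Erp44, which retains clients in the early secretory pathway, by 1.29 (SE 0.0737). Pdia4 was uneven among the 878 libraries, at 393, 234 and 465 CPM, against 109.7, 98.4 and 101 CPM in the NC libraries. Replicate 2 was the lowest of its group and still above every NC library, and Pdia4 rose by 1.82 (SE 0.226, adjusted p = 0.000445). The member that fell was Tmx4, a membrane-bound thioredoxin-like protein, at 9.12 ± 2.81 CPM in 878 libraries and 19.1 ± 0.852 CPM in NC libraries (SD, n = 3 each), with a log2 fold change of -1.07 (SE 0.215). Calr, the soluble lectin chaperone of the ER, was at 4146, 4899 and 3955 CPM in the 878 libraries, against 1416, 1417 and 1325 CPM in the NC libraries and rose by 1.64 (SE 0.105). Its membrane-bound relative Canx was at 624, 363 and 697 CPM in the 878 libraries, against 409.9, 341 and 407 CPM in the NC libraries. For Canx, replicate 2 lay among the NC libraries, and it was called only without that library (log2 fold change 0.78, adjusted p = 0.0005, against 0.54 and 0.0871 with all libraries).

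The sensors at the head of the response depended on replicate 2 in the same way as Canx. Of 12 tested sensors and transcription factors, 2 rose and 1 fell with all libraries, beside 31.5% called of all genes tested. Without 878 replicate 2, 6 were called, and 5 without 878 replicate 3. Ern1, the nuclease sensor that splices Xbp1, was at 17.5, 6.67 and 20.7 CPM in the 878 libraries, against 7.34, 4.86 and 9.97 CPM in the NC libraries. Eif2ak3, the kinase sensor also known as PERK, was at 32.4, 17.7 and 34.1 CPM in the 878 libraries, against 18.2, 16.5 and 18.0 CPM in the NC libraries. Atf6, the sensor released by cleavage in the Golgi, was at 195, 136 and 216 CPM in the 878 libraries, against 156, 143 and 171 CPM in the NC libraries. In each case replicates 1 and 3 were above every NC library and replicate 2 was not. Without replicate 2 the log2 fold changes were 1.38, 0.93 and 0.40 for Ern1, Eif2ak3 and Atf6, with adjusted p of 0.00505, 0.000878 and 0.0119, against 0.103, 0.0588 and 0.345 with all libraries. Xbp1, whose spliced form drives chaperone and degradation genes, was at 276, 312 and 281 CPM in the 878 libraries, against 190.4, 196 and 192 CPM in the NC libraries and rose by 0.59 (SE 0.0708, adjusted p = 0.000373). Gene counts do not show splicing of Xbp1. Creb3, a membrane-bound transcription factor, rose by 0.76 (SE 0.0904), and Eif2ak2, a kinase activated by double-stranded RNA and induced by interferon, was the member that fell, at -0.69 (SE 0.159, adjusted p = 0.0106).

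The ATF4 and CHOP arm of the response was higher. Of 16 tested genes of ATF4, CHOP and their feedback loops, 11 rose and 1 fell, with a median of 1.06. Ddit3, which encodes CHOP, was at 199.9, 335 and 205 CPM in the 878 libraries, against 17.7, 22.1 and 16.5 CPM in the NC libraries (gene 13198, chromosome 10, 127290793 to 127296291). Trib3, a pseudokinase that restrains CHOP, was at 354, 446 and 356 CPM in the 878 libraries, against 41.5, 51.8 and 41.1 CPM in the NC libraries. Ppp1r15a, which restores translation by reversing the phosphorylation of eIF2, was at 134, 185 and 133 CPM in the 878 libraries, against 23.7, 29.1 and 22.5 CPM in the NC libraries. For all 3 genes replicate 2 was the highest library and the lowest 878 library was several times the highest NC library. Their log2 fold changes were 3.72 (SE 0.24, adjusted p = 1.46e-05), 3.10 (SE 0.136, adjusted p = 1.97e-06) and 2.58 (SE 0.169, adjusted p = 1.49e-05). In the table Ddit3 overlaps the ends of Mbd6 and Mars1 by 77 and 71 bases. Atf4 itself was already abundant, at 913, 1096 and 867 CPM in the 878 libraries, against 482, 519.95 and 465 CPM in the NC libraries, and rose by 0.97 (SE 0.115). Atf5, a related factor, rose by 2.56 (SE 0.22), and Nupr1, a stress-induced chromatin protein, by 1.45 (SE 0.239). Ddit4, an inhibitor of the mTOR kinase and also a known ATF4 target, was the member that fell, at 15.3 ± 2.10 CPM in 878 libraries and 25.3 ± 1.39 CPM in NC libraries (SD, n = 3 each), with a log2 fold change of -0.73 (SE 0.116, adjusted p = 0.00158).

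A sequence bound by ATF4 with C/EBP factors was searched as TGATG and AA 1 base apart, on both strands. It was found in 5 of 15 promoters of the ATF4 and CHOP list (33.3%), 4 of 12 of amino acid synthesis and 5 of 13 of tRNA synthetases (38.5%), beside 274 of 9485 tested promoters (2.89%). Of those 274 genes 64 were called higher (23.4%) and 37 lower (13.5%). The stretches, on each gene's strand, are at chr2:152344011-152344080 (minus) for Trib3, chr7:126625542-126625611 (minus) for Nupr1 and chr2:119351018-119351087 (plus) for Chac1, a glutathione-degrading enzyme that was at 12.8, 12.6 and 12.02 CPM in the 878 libraries, against 4.80, 8.39 and 6.98 CPM in the NC libraries. Capitals mark the match, which lies on the opposite strand in all 3.
Trib3: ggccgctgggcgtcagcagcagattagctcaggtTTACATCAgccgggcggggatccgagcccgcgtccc
Nupr1: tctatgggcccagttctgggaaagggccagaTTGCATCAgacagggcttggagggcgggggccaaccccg
Chac1: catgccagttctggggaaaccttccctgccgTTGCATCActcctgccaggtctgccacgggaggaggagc

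Amino acid supply genes, many of them ATF4 targets, were also higher. Of 13 tested genes of amino acid and one-carbon synthesis 8 rose and none fell (median 0.526), and of 10 amino acid transporters 7 rose and none fell (median 0.497). Among 20 cytosolic tRNA synthetases 12 rose and 2 fell (median 0.326). Psph, the last enzyme of serine synthesis, was at 108, 121 and 101 CPM in the 878 libraries, against 45.6, 48.2 and 44.5 CPM in the NC libraries and rose by 1.25 (SE 0.0971). Asns, asparagine synthetase, rose by 0.61 (SE 0.0694), and Aldh1l2, a mitochondrial folate enzyme, by 1.12 (SE 0.178). All 878 libraries were above all NC libraries for these 3 genes. Slc6a9, a glycine transporter, was at 124, 159.5 and 116 CPM in the 878 libraries, against 30.04, 31.8 and 28.9 CPM in the NC libraries and rose by 2.14 (SE 0.127, adjusted p = 9.18e-06). Slc3a2, the heavy chain shared by several transporters, rose by 1.32 (SE 0.104), and its partner Slc7a11, the cystine transporter, was not called, with values of 46.1, 28.02 and 63.7 CPM in the 878 libraries, against 40.9, 33.3 and 43.9 CPM in the NC libraries. Wars and Aars, which charge tRNAs with tryptophan and alanine, rose by 1.46 (SE 0.114) and 1.12 (SE 0.0982).

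The removal, import and export machinery of the ER rose too. Of 27 tested genes of ER-associated degradation, 19 rose and 1 fell, with a median of 0.546. Herpud1, an adaptor of the degradation complex, was at 246, 245 and 254 CPM in the 878 libraries, against 41.4, 47.4 and 41.2 CPM in the NC libraries and rose by 2.52 (SE 0.0784, adjusted p = 6.68e-07). Syvn1, its ubiquitin ligase, rose by 1.91 (SE 0.088), and Sel1l, the partner that stabilises the ligase, by 1.55 (SE 0.166). Selenos, a selenoprotein of the same complex, rose by 1.67 (SE 0.0763). These 4 genes were higher in every 878 library than in any NC library. Of 22 tested genes of the translocon and signal recognition, 15 rose and none fell (median 0.663). Sec61a1, the channel through which new proteins enter, was at 649.95, 862 and 629.8 CPM in the 878 libraries, against 267, 279 and 246 CPM in the NC libraries and rose by 1.44 (SE 0.138), Srprb, a subunit of the docking receptor, rose by 1.30 (SE 0.102) and Sec11a, which cuts signal peptides, by 1.01 (SE 0.0939). Replicate 2 was the highest library for these 3. Of 29 tested genes of transport between ER and Golgi, 15 rose and none fell (median 0.493). Surf4, a cargo receptor, was at 479, 473 and 508 CPM in the 878 libraries, against 207, 205 and 206 CPM in the NC libraries and rose by 1.24 (SE 0.0636). Mcfd2 and Lman1, which together carry clotting factors out of the ER, rose by 1.64 (SE 0.165) and 0.94 (SE 0.157). Sec24d, a coat protein that selects cargo, was called only without replicate 2 (1.23, adjusted p = 0.00514), where that library held 54.0 CPM beside 145 and 173 CPM in its mates and 66.1, 55.8 and 83.0 CPM in the NC libraries. With any 1 library left out, 18 to 23 genes were called in the degradation list, 12 to 20 in the translocon list and 13 to 21 in the transport list.

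The glycosylation pathway in which Nus1 works was partly higher. Among 10 tested genes of dolichol synthesis and use 5 rose, and the 1 that fell was Nus1 itself. Without NC replicate 1 the called members of that list numbered 3. Dpm2, a subunit of the enzyme that loads mannose onto dolichol, was at 106, 161 and 91.2 CPM in the 878 libraries, against 58.1, 69.95 and 59.6 CPM in the NC libraries and rose by 0.93 (SE 0.205, adjusted p = 0.00845). Dolpp1, which recycles dolichol after each transfer, rose by 0.71 (SE 0.105). The groups did not overlap for either. Of 15 genes that assemble the sugar tree on dolichol, 7 rose and none fell (median 0.451). Alg5, which loads glucose onto dolichol phosphate, and Alg2, which adds mannose to the tree, rose by 1.34 (SE 0.134) and 1.21 (SE 0.0945). Dpagt1, which starts the tree, was at 103, 104 and 96.4 CPM in the 878 libraries, against 60.0, 60.2 and 59.5 CPM in the NC libraries and rose by 0.76 (SE 0.0662, adjusted p = 7.23e-05). Of 12 subunits of the oligosaccharyltransferase 7 rose and none fell (median 0.614). Stt3a, a catalytic subunit, was at 519.7, 457 and 584 CPM in the 878 libraries, against 254, 237 and 251 CPM in the NC libraries and rose by 1.07 (SE 0.097). Ostc, which ties that enzyme to the translocon, was at 214, 208 and 210.2 CPM in the 878 libraries, against 101, 106 and 99.0 CPM in the NC libraries and rose by 1.05 (SE 0.0698), and the groups of both genes were well apart.

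ER calcium genes held 6 that rose of 12 tested and none that fell (median 0.347). Atp2a3, a pump that fills the ER with calcium, was nearly silent in control cells, at 19.9, 23.3 and 21.7 CPM in the 878 libraries, against 1.30, 1.57 and 1.25 CPM in the NC libraries, and rose by 3.97 (SE 0.133, adjusted p = 7.24e-07). Orai1, the plasma membrane channel that opens when the store is empty, rose by 0.71 (SE 0.163). Among 17 tested BCL2 family members and caspases 1 rose and 4 fell, a share near the 31.5% called of all genes tested. Their number called was 3 without NC replicate 1 or NC replicate 3 and 8 without 878 replicate 2. Pmaip1, a promoter of cell death, was at 22.9, 11.9 and 25.8 CPM in the 878 libraries, against 56.2, 52.4 and 57.7 CPM in the NC libraries and fell by 1.45 (SE 0.271). It was lower in every 878 library than in any NC library.

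**Figure D3:**
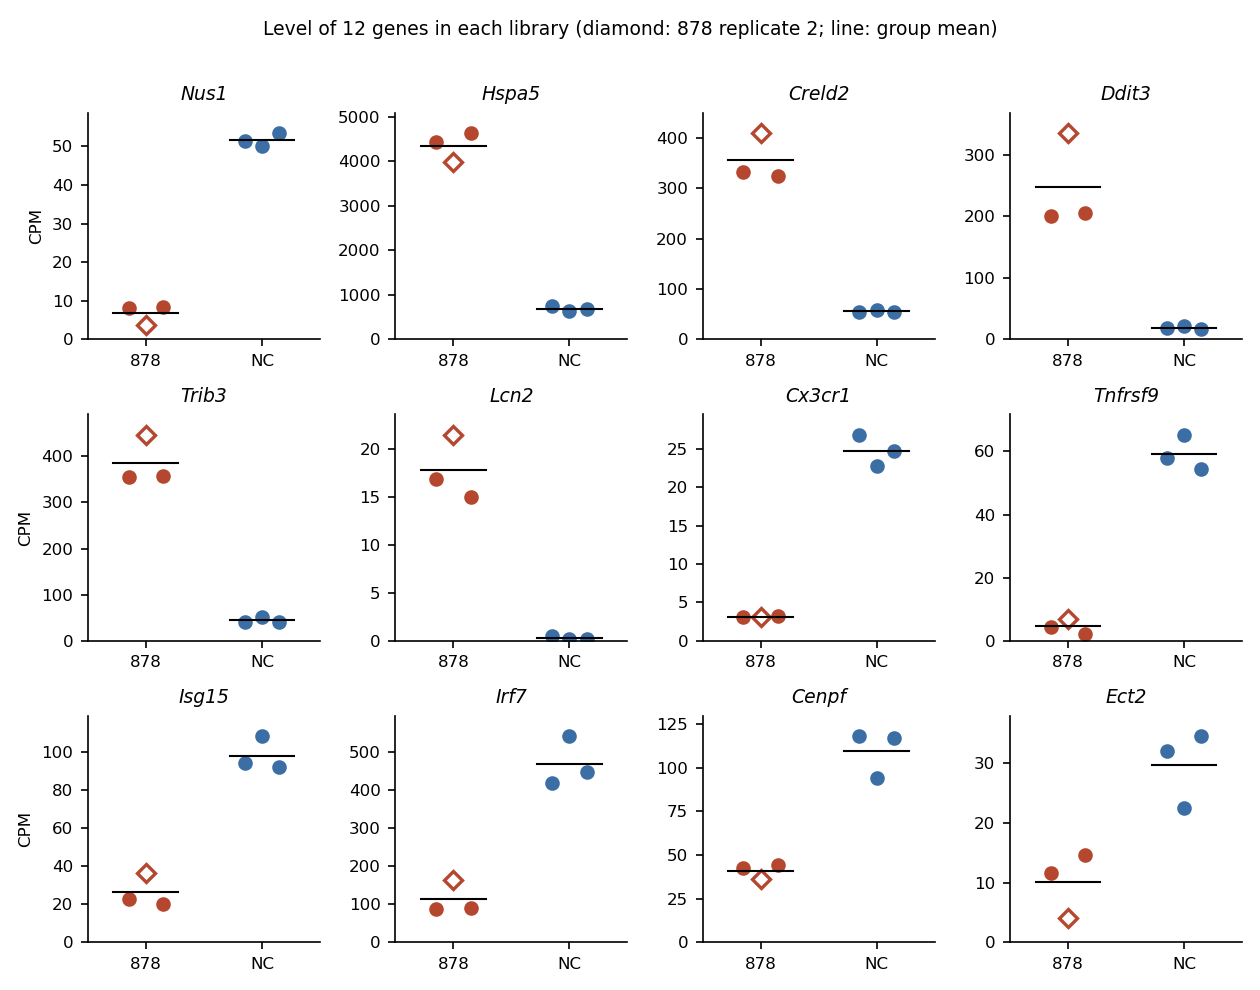
Level in CPM (y axes, linear from 0) of 12 genes in each library of siRNA 878 (left) and NC (right), with lines at the group means and an open diamond for 878 replicate 2. Hspa5, Creld2, Ddit3, Trib3 and Lcn2 are higher and Nus1, Cx3cr1, Tnfrsf9, Isg15, Irf7, Cenpf and Ect2 lower in every 878 library than in any NC library.

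Interferon-induced genes were lower. Of 28 tested antiviral genes, 25 fell and none rose, with a median log2 fold change of -1.07, beside 15.5% of all genes called lower. Isg15, a ubiquitin-like modifier, was at 22.7, 36.5 and 20.4 CPM in the 878 libraries, against 94.4, 108 and 91.9 CPM in the NC libraries. Oas3, which makes the activator of an antiviral nuclease, was at 54.1, 56.4 and 54.6 CPM in the 878 libraries, against 158, 154 and 157 CPM in the NC libraries. Rsad2, which makes a nucleotide that stops viral polymerases, was at 28.9, 22.5 and 36.9 CPM in the 878 libraries, against 77.5, 68.3 and 78.4 CPM in the NC libraries. All 878 libraries were below all NC libraries, and for Isg15 replicate 2 was the nearest to the controls. The log2 fold changes were -1.89 (SE 0.216, adjusted p = 0.000289) for Isg15, -1.51 (SE 0.0654, adjusted p = 1.93e-06) for Oas3 and -1.34 (SE 0.166, adjusted p = 0.000432) for Rsad2. Ifi44 had the largest change of the list, at -2.48, with 0.539 ± 0.165 CPM in 878 libraries and 3.05 ± 0.446 CPM in NC libraries (SD, n = 3 each).

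The control of the response was lower as well. Of 19 tested genes of interferon signalling 7 fell and 1, Ifnar1, rose, beside 15.5% of all genes tested called lower and 16.0% higher. The list held 5 called genes without NC replicate 1 or 878 replicate 1. Irf7, the factor that amplifies type I interferon production, was at 88.0, 165 and 91.6 CPM in the 878 libraries, against 418, 541 and 447 CPM in the NC libraries and fell by 2.03 (SE 0.253, adjusted p = 0.000451). Irf9, the DNA-binding subunit of the complex that switches on interferon-induced genes, fell by 0.54 (SE 0.0862). Ifnar1, a receptor chain for type I interferon, was at 81.4, 81.4 and 85.6 CPM in the 878 libraries, against 68.7, 72.1 and 71.8 CPM in the NC libraries, a small difference whose call was lost without any 1 of NC replicates 1 to 3, 644 replicate 3 and 878 replicates 1 and 3 (adjusted p = 0.0543 to 0.117). Of 10 interferon-induced GTPases 7 fell and none rose, 3 without NC replicate 1 and 4 without NC replicate 3. Among 14 genes of MHC class I and peptide loading 2 rose and 5 fell, beside 16.0% of all genes tested called higher and 15.5% lower. B2m, the light chain of class I, was at 1213, 1224 and 1223 CPM in the 878 libraries, against 1656, 1842 and 1908 CPM in the NC libraries and fell by 0.56 (SE 0.0813), and Tapbp, which loads peptides, fell by 0.92 (SE 0.0685). The count of this list moved with single libraries, to 3 called genes without NC replicate 2, 878 replicate 1 or 878 replicate 3, 4 without NC replicate 3 and 12 without 878 replicate 2.

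The interferon-stimulated response element was searched as TTTC and TTTC 2 bases apart, on both strands. It was found in 13 of 22 promoters of the antiviral list (59.1%) and 8 of 9 of the GTPases (88.9%), beside 368 of 9485 tested promoters (3.88%). Of those 368 genes 65 were called higher (17.7%) and 90 lower (24.5%). The stretches, on each gene's strand, are at chr4:156200845-156200914 (minus) for Isg15, chr5:120777695-120777764 (minus) for Oas3 and chr12:26456533-26456602 (minus) for Rsad2, with the match in capitals, forward in Rsad2 and on the opposite strand in the other two.
Isg15: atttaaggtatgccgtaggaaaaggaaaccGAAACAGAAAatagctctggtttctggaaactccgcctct
Oas3: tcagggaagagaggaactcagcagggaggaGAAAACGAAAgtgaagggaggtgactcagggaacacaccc
Rsad2: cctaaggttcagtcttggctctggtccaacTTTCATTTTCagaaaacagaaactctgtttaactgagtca

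Genes of cell division were lower in nearly every case. Of 32 tested genes of G2 and mitosis, 31 fell and none rose, with a median of -0.946. Cenpf, a kinetochore protein, was at 42.4, 36.2 and 44.1 CPM in the 878 libraries, against 118, 94.3 and 117 CPM in the NC libraries. Cenpa, the histone variant of centromeres, was at 46.7, 52.9 and 44.6 CPM in the 878 libraries, against 110.1, 127 and 114 CPM in the NC libraries. Mki67, which coats mitotic chromosomes, was at 310.03, 239 and 301 CPM in the 878 libraries, against 659, 555 and 639 CPM in the NC libraries. None of the 878 libraries reached the lowest NC library, and the log2 fold changes were -1.43 (SE 0.126, adjusted p = 7.76e-05) for Cenpf, -1.29 (SE 0.0899, adjusted p = 2.16e-05) for Cenpa and -1.13 (SE 0.113, adjusted p = 0.000148) for Mki67. The kinase Cdk1 fell by 0.79 (SE 0.0762) and its cyclin Ccnb1 by 0.95 (SE 0.112). Ect2, which positions the cleavage furrow, had the largest change of the list, at 11.7, 4.07 and 14.5 CPM in the 878 libraries, against 32.0, 22.4 and 34.4 CPM in the NC libraries, with a log2 fold change of -1.55 (SE 0.404, adjusted p = 0.0186). Its call was lost without NC replicate 1 (adjusted p = 0.06) or NC replicate 3 (adjusted p = 0.0653).

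Among 31 tested genes of DNA replication in S phase, 19 fell, with a median of -0.484 and no gene higher. Rrm1, a subunit of the enzyme that makes deoxynucleotides, was at 142, 111 and 147 CPM in the 878 libraries, against 268, 244 and 267 CPM in the NC libraries and fell by 0.96 (SE 0.12). Lig1, the ligase of replicating DNA, was at 76.7, 78.7 and 68.3 CPM in the 878 libraries, against 137, 135 and 128 CPM in the NC libraries and fell by 0.84 (SE 0.0753). Replication-dependent histone genes, whose mRNAs mostly lack poly(A) tails, had 5 of 6 tested members called lower, and 3 without NC replicate 2 or 3 or 878 replicate 1 or 3. H2bc4 was at 73.3, 92.4 and 68.4 CPM in the 878 libraries, against 191, 218 and 189 CPM in the NC libraries and fell by 1.35 (SE 0.136). Of 22 genes of G1 control 2 rose and 9 fell, beside 16.0% of all genes tested called higher and 15.5% lower. Inhibitors of cyclin-dependent kinases were called in both directions. Cdkn2c was at 13.2, 12.99 and 12.7 CPM in the 878 libraries, against 25.6, 25.5 and 23.8 CPM in the NC libraries, and it and Cdkn2d were lower, with log2 fold changes of -0.94 (SE 0.0957) and -1.29 (SE 0.199). Cdkn2b, of the same family, was at 3.49, 2.65 and 3.52 CPM in the 878 libraries, against 1.97, 1.87 and 1.78 CPM in the NC libraries and rose by 0.78 (SE 0.168, adjusted p = 0.00744). The called members of the G1 list numbered 6 without NC replicate 1 or 3 and 7 without NC replicate 2.

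The cell cycle genes homology region was searched as TTTGAA on both strands. It was found in 19 of 27 promoters of the G2 and mitosis list (70.4%) and 4 of 26 of the S phase list (15.4%), beside 1392 of 9485 tested promoters (14.7%). Of those 1392 genes 212 were called higher (15.2%) and 294 lower (21.1%). The stretches are at chr3:27153829-27153898 (minus) for Ect2, chr1:189688047-189688116 (minus) for Cenpf and chr5:30666866-30666935 (plus) for Cenpa, each on the gene's strand with the match in capitals just after the annotated start.
Ect2: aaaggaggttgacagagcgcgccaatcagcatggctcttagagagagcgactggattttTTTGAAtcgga
Cenpf: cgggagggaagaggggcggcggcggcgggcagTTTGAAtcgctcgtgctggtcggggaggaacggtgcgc
Cenpa: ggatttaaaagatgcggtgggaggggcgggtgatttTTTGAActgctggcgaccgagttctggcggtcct

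Markers of the microglial state were called in both directions. Of 23 tested genes of the homeostatic state 2 rose and 5 fell, a share near the 31.5% called of all genes, and of 27 of the disease-associated state 7 rose and 7 fell. Cx3cr1, the receptor for the neuronal chemokine fractalkine, was at 3.08, 3.05 and 3.17 CPM in the 878 libraries, against 26.8, 22.7 and 24.8 CPM in the NC libraries, with a log2 fold change of -2.995 (SE 0.117, adjusted p = 1.14e-06). The 878 libraries were nearly alike, replicate 2 included, and all were far below the NC libraries. Mef2c, a transcription factor of resting microglia, was at 45.0, 31.0 and 47.2 CPM in the 878 libraries, against 115, 100.5 and 126 CPM in the NC libraries and fell by 1.47 (SE 0.165). Of the disease-associated genes, Axl, a receptor that clears dying cells, was at 3.70, 3.05 and 3.62 CPM in the 878 libraries, against 10.3, 13.4 and 11.8 CPM in the NC libraries, and Spp1, the secreted protein osteopontin, was at 3989, 3210.5 and 4099 CPM in the 878 libraries, against 5695, 5846 and 5637 CPM in the NC libraries. All 878 libraries were below all NC libraries for both. They fell, by 1.78 (SE 0.168) and 0.60 (SE 0.111). Ctsd, the main aspartic protease of lysosomes, rose by 1.22 (SE 0.0842), Lyz2, lysozyme, by 0.62 (SE 0.0737) and Csf1, the growth factor of microglia, by 0.63 (SE 0.0881).

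Cytokines and chemokines were mostly lower, while members of the TNF receptor superfamily were called in both directions. Of 18 tested cytokines and chemokines 3 rose and 11 fell, with a median of -0.668. Il1rn, the natural antagonist of interleukin 1, was at 4.06, 4.63 and 4.58 CPM in the 878 libraries, against 13.1, 14.9 and 15.1 CPM in the NC libraries and fell by 1.70 (SE 0.111). Ccl12, a chemokine for monocytes, was at 1.08, 1.19 and 0.704 CPM in the 878 libraries, against 4.13, 6.09 and 4.82 CPM in the NC libraries, and Ccl5 was at 4.36, 9.04 and 5.53 CPM in the 878 libraries, against 16.7, 20.03 and 17.2 CPM in the NC libraries. They fell by 2.34 (SE 0.314) and 1.51 (SE 0.308). No 878 library of these 3 genes reached the NC values. Among those that rose was Il6, with 57 counts in all over the 878 libraries and 5 over the NC libraries, a ratio of 12.4 (95% interval 5.01 to 39.6, counting error only). Among 20 tested genes of Toll-like receptors and their partners 4 rose and 5 fell, beside 16.0% of all genes tested called higher and 15.5% lower. Those that rose, Hsp90b1, Ly96, Unc93b1 and Myd88, are not Toll-like receptors themselves. Ly96, Unc93b1 and Myd88 lost the call without NC replicate 1, which left 1 member called higher and 5 lower. Unc93b1 also lost it without NC replicate 3, and Ly96 without NC replicate 3, 644 replicate 3 or 878 replicate 1 or 3. The receptors called, Tlr1, Tlr2, Tlr6 and Tlr13, were lower. Cd14, which hands bacterial lipid to the receptor, was at 56.2, 64.7 and 54.0 CPM in the 878 libraries, against 138, 156 and 146 CPM in the NC libraries and fell by 1.33 (SE 0.0916). Of 18 tested members of the TNF receptor superfamily 4 rose and 4 fell, beside 16.0% of all genes tested called higher and 15.5% lower. Tnfrsf9, a costimulatory receptor, was at 4.42, 6.95 and 2.26 CPM in the 878 libraries, against 57.8, 65.2 and 54.5 CPM in the NC libraries, while Cd40, another costimulatory receptor, was at 9.81, 9.43 and 9.91 CPM in the 878 libraries, against 1.63, 2.80 and 2.50 CPM in the NC libraries. The 2 receptors thus moved in opposite directions, with log2 fold changes of -3.71 (SE 0.327, adjusted p = 7.5e-05) and 2.07 (SE 0.174, adjusted p = 6.09e-05). Of 19 genes of NF-kB and its feedback 2 rose and 4 fell, a share near the 31.5% called of all genes tested. Called members numbered 3 in all without NC replicate 2 or 878 replicate 1. The inhibitor Nfkbia was at 16.7, 16.7 and 15.9 CPM in the 878 libraries, against 26.5, 25.8 and 24.8 CPM in the NC libraries and fell by 0.65 (SE 0.0798).

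Called genes of glycolysis and the hypoxia response were mostly lower, and few genes of respiration were called. Of 28 tested genes of glycolysis and the hypoxia response 2 rose and 15 fell, with a median of -0.476. The summed level of the list was 27570, 40260 and 24240 CPM in 878 replicates 1, 2 and 3. In the NC libraries it was between 34330 and 39890 CPM, so replicate 2 lay above every NC library. Bnip3, a mitochondrial protein induced by low oxygen, was at 47.1, 39.4 and 31.0 CPM in the 878 libraries, against 133, 126 and 129 CPM in the NC libraries and fell by 1.72 (SE 0.139). Ankrd37, another hypoxia-induced gene, was at 2.46, 3.67 and 1.86 CPM in the 878 libraries, against 11.8, 11.8 and 9.15 CPM in the NC libraries and fell by 2.04 (SE 0.225). Pgam1, a glycolytic enzyme, was at 1286, 1369.5 and 1180.4 CPM in the 878 libraries, against 1864, 1932 and 1866 CPM in the NC libraries and fell by 0.56 (SE 0.0806). Lower values in all 878 libraries held for each of them. Ndrg1 and Vegfa, both also induced by low oxygen, rose by 1.21 (SE 0.0693) and 0.39 (SE 0.0864). Of 30 nuclear genes of oxidative phosphorylation none rose and 2 fell, which became 4 without 878 replicate 2 and 1 without NC replicate 1 or 2, any 644 library or 878 replicate 1. Beside 31.5% called of all genes tested, 5 of 19 genes of sterol synthesis rose and 3 fell, 8 in all. That number was 4 without any 1 of the NC libraries or 644 replicate 3, 5 without 878 replicate 1 or 3 and 12 without 878 replicate 2. Ebp, an isomerase of late sterol synthesis, was at 36.3, 45.6 and 32.9 CPM in the 878 libraries, against 25.5, 24.1 and 23.3 CPM in the NC libraries and rose by 0.65 (SE 0.13), and Acat2, at the start of the pathway, was at 26.1, 33.8 and 25.1 CPM in the 878 libraries, against 48.7, 50.2 and 42.7 CPM in the NC libraries and fell by 0.74 (SE 0.128). The libraries of the 2 groups did not overlap for either gene. Npc1, which exports cholesterol from lysosomes, was at 228, 151 and 241 CPM in the 878 libraries, against 90.1, 83.0 and 99.3 CPM in the NC libraries and rose by 1.19 (SE 0.167).

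Lysosomal genes were partly higher, and autophagy genes were called about as often as all genes. Of 28 tested lysosomal hydrolases and their activators 10 rose and 4 fell (median 0.22), beside 16.0% of all genes tested called higher and 15.5% lower. Ctsd was at 3783, 4267 and 3838 CPM in the 878 libraries, against 1669, 1772 and 1663 CPM in the NC libraries and Psap, the precursor of activators of sphingolipid breakdown, was at 1454, 1795 and 1416 CPM in the 878 libraries, against 820.5, 879 and 787 CPM in the NC libraries. Both were higher in all 878 libraries, with replicate 2 the highest. Ctsc, a cathepsin that activates other proteases, was at 191, 137 and 201 CPM in the 878 libraries, against 296, 266 and 294 CPM in the NC libraries and fell by 0.70 (SE 0.138). Of 28 tested genes of autophagy 8 rose and none fell (median 0.163). That total is a share near the 31.5% called of all genes tested, while 16.0% of all genes were called higher. The number called in either direction was 3 without NC replicate 1 or 3, 4 without NC replicate 2 and 5 without 644 replicate 1 or 3. Without 878 replicate 2, 11 were called higher and 2 lower. Sqstm1, the receptor that brings ubiquitinated cargo to autophagosomes, was at 1240.3, 1505 and 1231 CPM in the 878 libraries, against 351, 396 and 338 CPM in the NC libraries and rose by 1.87 (SE 0.118, adjusted p = 1.28e-05). Tex264, a receptor for the breakdown of ER itself, rose by 0.89 (SE 0.164).

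**Figure D4:**
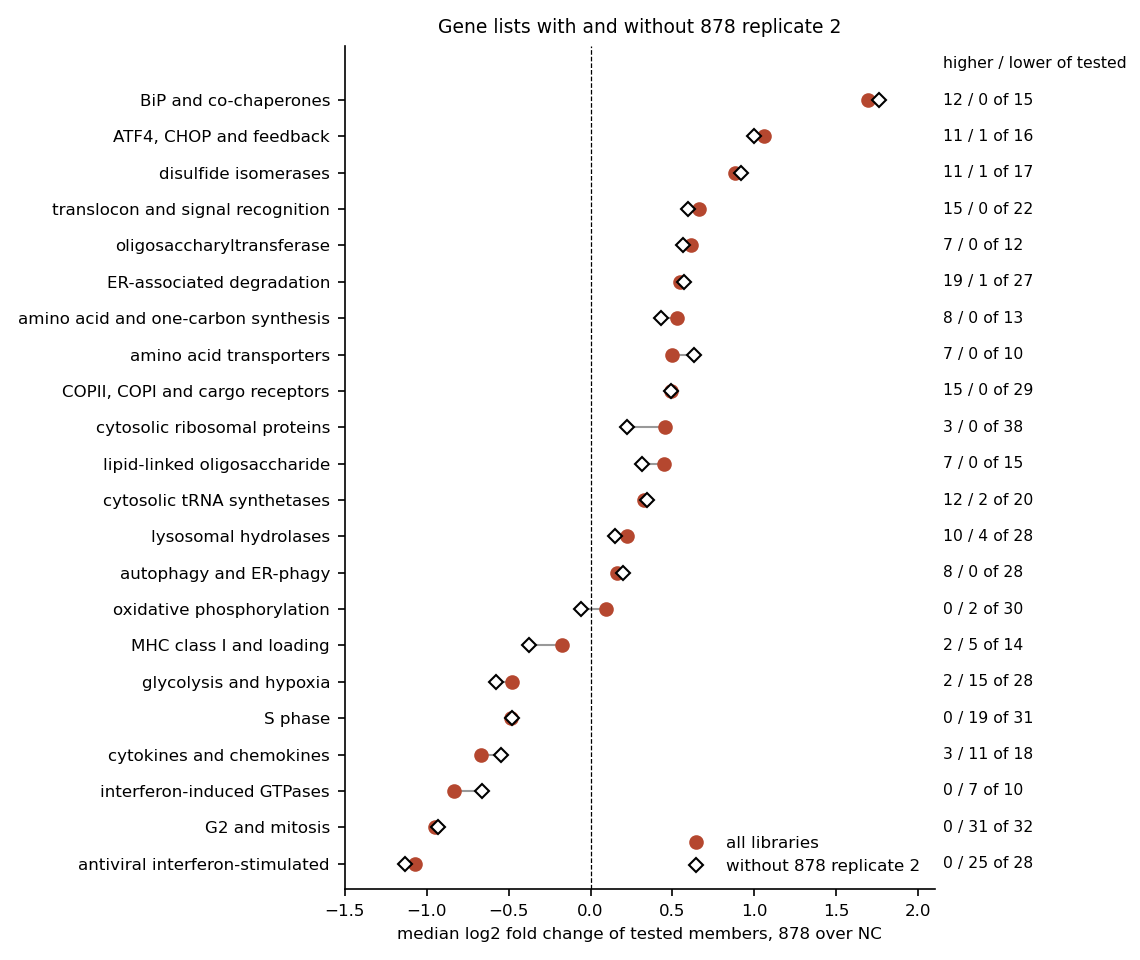
Median log2 fold change of siRNA 878 over NC (x axis) for 22 gene lists (rows), with all libraries (filled circles) and without 878 replicate 2 (open diamonds), the count called higher and lower of those tested at the right, and a dashed line at the median of all genes. The medians of BiP and its cochaperones (1.69) and of ATF4 and CHOP genes (1.06) are the highest named here, and those of antiviral genes (-1.07) and of G2 and mitosis (-0.946) lie at the other end.

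The series title names Lcn2, a secreted protein that binds iron carriers, and its receptor Slc22a17. Lcn2 was at 16.9, 21.5 and 15.04 CPM in the 878 libraries, against 0.480, 0.147 and 0.193 CPM in the NC libraries (gene 16819, chromosome 2, 32384637 to 32387739) and rose by 5.99 (SE 0.292, adjusted p = 3.38e-06). Its size rests on few control reads, and without NC replicate 1 it was 6.66. Slc22a17 was held by 7, 8 and 2 estimated counts in the 878 libraries and 3, 6 and 3 in the NC libraries, too few to be tested with the filter. When all genes were kept, it had a log2 fold change of 0.61 (SE 0.743, adjusted p = 0.615), so a difference was not detectable at this depth. Among 23 tested iron genes 4 rose and 1 fell, a share below the 31.5% called of all genes tested. Without 878 replicate 2, 10 iron genes were called. Those that rose besides Lcn2 were Cp, a ferroxidase, at 6.16, 6.04 and 7.55 CPM in the 878 libraries, against 0.816, 0.589 and 0.722 CPM in the NC libraries, Slc11a2, an iron importer, at 48.1, 49.5 and 47.6 CPM in the 878 libraries, against 27.8, 29.4 and 31.0 CPM in the NC libraries, and Slc48a1, a haem transporter, which rose by 0.47 (SE 0.0977). The groups did not overlap for any of these.

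The largest changes among expressed genes were of genes that control cells scarcely express. Avil, which binds and severs actin filaments, had 5349 counts in all 3 libraries of 878 and 2 in those of NC, a ratio of 2905 (95% interval 804 to 24000, counting error only). Car6, a secreted carbonic anhydrase, had 823 and 5, a ratio of 179 (76.3 to 552). Taf7l, a relative of a basal transcription factor, had 173 counts over the 878 libraries and none over the NC libraries, so it was at least 62.6-fold higher, taking 3 counts over the NC group as the floor. Bglap2 and Akr1b7 were also near 0 in NC libraries, and their ratios were 101 (56.4 to 204) and 81.4 (46.4 to 158), with near-identical relatives of each in the genome. Col4a1, a chain of basement membrane collagen, was at 30.7, 32.4 and 28.6 CPM in the 878 libraries, against 1.30, 1.37 and 0.867 CPM in the NC libraries, and rose by 4.69 (SE 0.157, adjusted p = 7.24e-07). Col4a2, which encodes its partner chain and overlaps Col4a1 by 85 bases, was not called, with a log2 fold change of -0.96 (adjusted p = 0.105, same edgeR test). Gpr84, a receptor for medium-chain fatty acids, was at 85.1, 116 and 77.1 CPM in the 878 libraries, against 7.25, 7.76 and 8.14 CPM in the NC libraries. Angptl6, a secreted angiopoietin-like protein, was at 44.6, 64.8 and 40.6 CPM in the 878 libraries, against 3.12, 3.44 and 1.88 CPM in the NC libraries. Replicate 2 was the highest library for both, and all 878 libraries were many times the NC level. The 2 genes rose by 3.59 (SE 0.178) and 4.15 (SE 0.252).

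Among genes that fell most, Hes7, a transcriptional repressor, was at 0.924, 1.19 and 0.956 CPM in the 878 libraries, against 7.01, 9.87 and 7.75 CPM in the NC libraries, and Ly6a, an interferon-inducible surface protein, was at 6.78, 10.8 and 7.70 CPM in the 878 libraries, against 53.3, 74.2 and 69.5 CPM in the NC libraries. Their log2 fold changes were -3.002 (SE 0.204) and -2.96 (SE 0.218). The neighbouring paralogs Apol9a and Apol9b, whose reads may be shared, were at means of 3.93 and 4.58 CPM in 878 libraries and 26.4 and 30.9 CPM in NC libraries. Acod1, which makes the antimicrobial metabolite itaconate, was at 13.7, 12.5 and 12.4 CPM in the 878 libraries, against 60.7, 60.0 and 64.6 CPM in the NC libraries, and Cytip, which regulates adhesion of leukocytes, was at 13.1, 12.8 and 13.4 CPM in the 878 libraries, against 61.7, 65.5 and 65.8 CPM in the NC libraries. The libraries of each group lay close together for both, and they fell by 2.26 (SE 0.0977) and 2.30 (SE 0.082). Measured as a difference in mean CPM, the most abundant genes that rose were Hspa5, Calr and Ctsd, and those that fell were Spp1, Gm46894, a predicted gene that lies within Cep85 in the table, and Pkm, a glycolytic enzyme. Pkm was at 2947, 3949 and 2507 CPM in the 878 libraries, against 4716, 5263 and 4734 CPM in the NC libraries, and its call was lost without 878 replicate 1 (adjusted p = 0.0587). Tuba1b, a tubulin, was at 1975, 2239.9 and 1928 CPM in the 878 libraries, against 3223, 3484 and 3295 CPM in the NC libraries, and Vim, the intermediate filament protein vimentin, was at 1071, 1307 and 1014 CPM in the 878 libraries, against 1745, 1910.00 and 1714 CPM in the NC libraries. They fell by 0.70 (SE 0.0911) and 0.66 (SE 0.115).

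Leaving out 878 replicate 2 raised the number of calls. Without it 4824 of 11856 genes were called (40.7%), 2415 higher (20.4%) and 2409 lower (20.3%). All but 188 of the 3696 genes were called again, and all 3508 called both times had the same direction. A further 1297 genes tested both times were called only without it, as were 19 genes that passed the count filter only then. Leaving out another 878 library moved the count less, to 2881 without replicate 1 and 3753 without replicate 3. Without NC replicate 1, 2 or 3 it was 2455, 2837 or 2491. In a fit of the 6 libraries of 878 and NC alone, 2730 genes were called, and 5254 without 878 replicate 2, beside 1072 to 2370 without any other library. Of the 480 genes that lay more than 2-fold below in replicate 2, 34 were called with it and 85 without it. Of the 39 above, 5 were called with it and 13 without it.

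**Figure D5:**
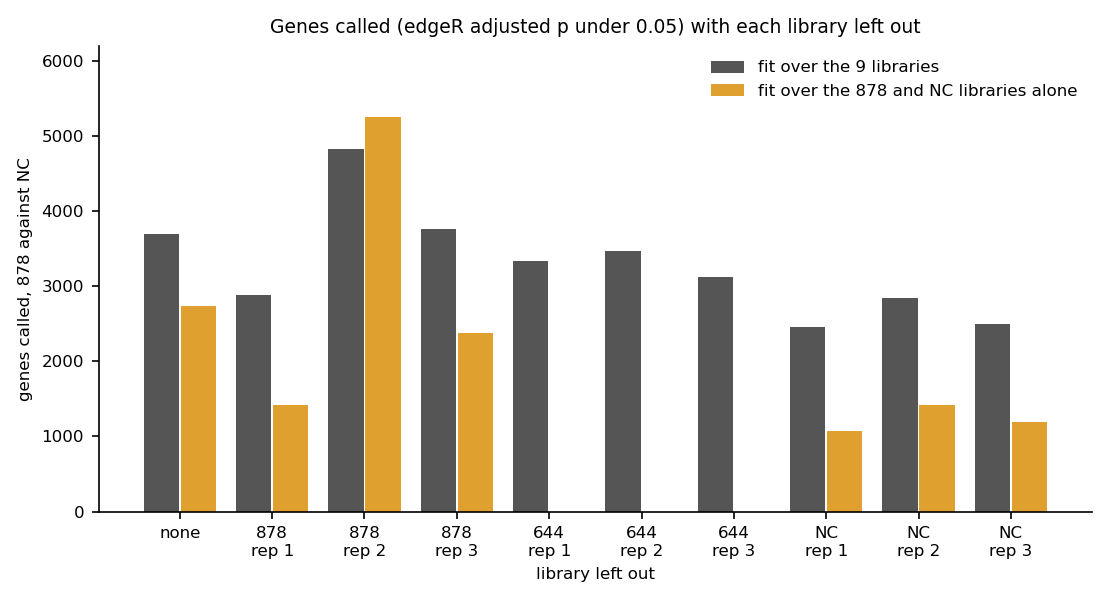
Number of genes called between siRNA 878 and NC (bars, y axis from 0) with all libraries and with each library left out in turn, in the fit of 9 libraries and in that of 6. Bars without 878 replicate 2 are the tallest, at 4824 and 5254, and those without NC replicate 1 the shortest, at 2455 and 1072.

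The direction of the largest groups did not turn on replicate 2. Without it 13 of the BiP list, 25 of the antiviral list and 31 of the G2 and mitosis list were called, in the direction given above. Cytosolic ribosomal protein genes, which are short and GC-rich, were high in that library. Their summed level was 49690, 74520 and 45820 CPM in 878 replicates 1, 2 and 3, and between 38400 and 46300 CPM in the NC libraries. The median log2 fold change of the 38 genes was 0.453, and 3 were called higher, Rplp1, Rpl23 and Rps4x. None was called without NC replicate 1, NC replicate 3 or 644 replicate 3, 1 without NC replicate 2, 644 replicate 1 or 878 replicate 1, and 20 without 878 replicate 3. Without 878 replicate 2 the median was 0.221 and 4 were called higher. Rplp1, a stalk protein of the large subunit, was at 1495, 2428 and 1338 CPM in the 878 libraries, against 943, 1200.5 and 973 CPM in the NC libraries. It was highest in replicate 2, and its adjusted p was at least 0.0546 without NC replicate 1, NC replicate 3 or 644 replicate 3. Of the genes called only with replicate 2, Cyp4x1, a cytochrome P450, was at 2.21, 3.33 and 2.11 CPM in the 878 libraries, against 0.960, 1.28 and 1.44 CPM in the NC libraries and had an adjusted p of 0.0762 without it. That call was also lost without any 1 NC library, 644 replicate 2 or 878 replicate 1.

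The authors' deposited table holds their own log2 fold changes and q-values for the comparison. Of 15823 genes with a q-value in the authors' deposited table, 3138 were under 0.05, with 1587 higher and 1551 lower. Of these, 3105 were also called here, which is 98.95% of the calls in the authors' deposited table and 84.01% of those recomputed from counts. All 3105 had the same direction in both.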

How the data were processed

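RNA-seq libraries of BV2 cells, 3 each of siRNA 878, siRNA 644 and NC, were analysed from 1 deposited table. It gives each gene's estimated counts and FPKM in every library, and the authors' log2 fold changes, p-values and q-values. Per the submitters' processing notes the tools were DESeq2 1.34.0 and Bowtie2 2.4.5 with mm39. No source used here names the counter, its strand setting or the annotation. Genes that overlap, antisense genes and near-identical copies (histones, Apol9a and Apol9b, Bglap2, Akr1b7, ribosomal proteins) are therefore uncertain. Of the nonzero expected counts deposited 37.4% were not whole within 1e-09, and they were rounded. A further 9 columns of per-sample values and 9 of averages were not used. Coordinates are those of the table. Although the notes name mm39, 12050 of 16347 genes matched by gene ID (73.7%) have exactly the chromosome, start and end of RefSeq on GRCm38.p6, and 15511 (94.9%) share at least 1 end, so the table's coordinates are read as GRCm38, the build of the RefSeq promoters.

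Genes with at least 10 counts in the libraries of 1 group's size and 15 in all, by filterByExpr, were tested with edgeR 4.0.16 in R 4.3.3 (TMM factors, quasi-likelihood F-test, group as the only term, 9 libraries, contrast 878 minus NC). The biological coefficient of variation was 14.91%. Standard errors were the fold change divided by the square root of F, and genes were called at a Benjamini-Hochberg adjusted p under 0.05. The total of 19362292 to 20224686 estimated counts a library limits what can be seen in genes of few reads, and the 95% intervals of count ratios (exact binomial) and the floor of 3 counts cover counting error only. GC content and transcript length were available for 15996 genes (97.5%). The fit was tested on simulated data. Alternatives used DESeq2 1.42.0, limma 3.58.1 (voom with weights, and log2 of FPKM plus 1 or 0.1), other scaling, filters, samples, a replicate block, GC and length offsets, and each library left out.

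The comparison, gene lists and motifs were chosen with earlier results of these data known. Genes were named by rule: Nus1, Lcn2 and Slc22a17; the 15 largest changes in each direction with no overlap of groups and an average log2 CPM of at least 1; up to 4 called members a direction of each list and its defining members; the 8 largest gaps of 878 replicate 2 in each direction; up to 8 genes called only with or only without it; and the 10 largest differences in mean CPM in each direction. Outside that rule, Adcy3, Atf4, Atf6, Canx, Ccnb1, Cdk1, Csf1r, Eif2ak3, Hnrnpa3, Manf, Mki67, Nupr1, Oas3, P2ry12, Rsad2, Sdf2l1, Sel1l, Slc7a11, Tmem119 and Trem2 were chosen after their values were seen. Ero1b, Pan2 and Acnat2 were named as genes with the ER stress response element, and Tlr1 as a called Toll-like receptor. Col4a2, Cep85, Mbd6 and Rabepk were named as genes that overlap another.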

Additional observations from a re-analysis of the deposited data

Results flagged for a closer look

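Of the genes called between 878 and NC that were reported here, 19 also differed between the 2 siRNAs in a direct test, which is why they are given here (edgeR quasi-likelihood contrast of 878 minus 644 over all genes, Benjamini-Hochberg adjusted). In all, 177 of 11739 genes passed that test, or 1.51%. The comparisons of each siRNA with NC share the NC libraries, so only the direct test is given. The log2 difference of 878 minus 644 was below 0 for 17 of the 19 genes. It was -1.98 for Mmp12, a macrophage elastase (adjusted p = 0.00824), -1.56 for Pirb, an inhibitory receptor of leukocytes (adjusted p = 0.00451), and -1.40 for Cd80, a costimulatory ligand (adjusted p = 0.0175). For Apol9a it was -1.33 (adjusted p = 0.0452), for Fosl1, an AP-1 subunit, -1.22 (adjusted p = 0.00517) and for Cp -1.18 (adjusted p = 0.00517). Spns3, a putative lipid transporter, stood at -1.09 (adjusted p = 0.0452) and Il1rn at -1.02 (adjusted p = 0.00517). Smaller differences were those of Pycr1, an enzyme of proline synthesis, at -0.87 (adjusted p = 0.0279), Avil at -0.80 (adjusted p = 0.021), H2-K1, a class I molecule, at -0.80 (adjusted p = 0.0291) and Nfkbia at -0.79 (adjusted p = 0.00451). Itgam, an integrin of macrophages, was at -0.71 (adjusted p = 0.0412), Atp2a3 at -0.62 (adjusted p = 0.0287) and Tlr2, a receptor for bacterial lipoproteins, at -0.50 (adjusted p = 0.0193). Herpud1 was at -0.41 (adjusted p = 0.0323) and Ppt1, a lysosomal thioesterase, at -0.36 (adjusted p = 0.0373). The genes that were higher in 878 than in 644 cells were Nsdhl, an enzyme of sterol synthesis, at 0.59 (adjusted p = 0.0109), and Rpn1, a subunit of the oligosaccharyltransferase, at 0.34 (adjusted p = 0.0492). No cause of these differences was tested.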

How the results depend on the processing

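The count of 3696 genes called was 7365 with limma voom and sample quality weights, and between 2455 (without NC replicate 1) and 4824 (without 878 replicate 2) with any 1 library left out. Under the other alternatives it stayed within 1.5 times, at 4146 with DESeq2, 3364 with no filter and 2730 in the 6 libraries of 878 and NC. Offsets for GC content and transcript length gave 5403, of which 2643 were higher and 2760 lower. The split was 1606 higher and 2138 lower with library sizes alone, where the median of all genes was -0.0702, and 1585 and 2260 on log2(FPKM + 1), where it was -0.061. Without 878 replicate 2 the count of 4824 ranged from 3515 with the replicate block to 6526 with voom. Same-numbered 878 and NC libraries deviated together with correlations of 0.09, 0.548 and 0.408 for numbers 1, 2 and 3. Those of 878 with 644 were -0.423, -0.686 and -0.224, and those of NC with 644 were -0.0893, -0.447 and -0.0983. The sign thus differed between pairs of groups, and the numbers were not taken as pairs. With the replicate block 2886 genes were called. Nus1 fell in every alternative, by 2.4 (log2(FPKM + 1)) to 3.13 (without 878 replicate 3). Of 290 genes followed through the alternatives 274 were called, and 197 of these were called again without any 1 library while 77 lost the call without at least 1. The 290 do not hold every gene of the text. Outside them are Nus1, given above, Tmem119, Tlr1, Ero1b, Pan2 and Acnat2. So are genes named only as overlapping another, such as Col4a2, or only for their gap in 878 replicate 2, such as Marchf7, Cpeb4 and Ccne2. Among the 290, a change of sign occurred for 1 gene, Slc7a11, which was not called and stood between -0.0877 (without 878 replicate 3) and 0.487 (without 878 replicate 2). The signs of genes outside the 290, other than Nus1, were not checked in this way. Causes of these shifts were not tested. With 3 libraries a group, 1 of them uneven, small differences of AT-rich long or GC-rich short transcripts are the least certain, and genes near 0 in NC have sizes that rest on a few reads. The effect of siRNA 878 on genes other than Nus1 cannot be told apart from the effect of lower Nus1 in this comparison.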

Other observations

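Some genes induced within minutes of a stimulus were lower in 878 cells. Of 22 tested immediate-early genes and their feedback regulators, 4 rose and 7 fell, 11 in all, beside 31.5% called of all genes tested. Without NC replicate 3, 7 of them were called. Nr4a1, a nuclear receptor without a known ligand, was at 9.50, 8.98 and 8.50 CPM in the 878 libraries, against 36.4, 37.0 and 38.6 CPM in the NC libraries. Fos, a subunit of the AP-1 factor, was at 8.16, 8.02 and 8.20 CPM in the 878 libraries, against 24.5, 26.7 and 25.2 CPM in the NC libraries. Zfp36, which marks cytokine mRNAs for decay, was at 22.8, 23.5 and 23.4 CPM in the 878 libraries, against 44.6, 45.8 and 48.6 CPM in the NC libraries. The 878 libraries lay close together and well below the NC libraries for all 3 genes, replicate 2 included. The log2 fold changes were -2.05 (SE 0.13, adjusted p = 1.28e-05) for Nr4a1, -1.65 (SE 0.13, adjusted p = 4.38e-05) for Fos and -0.996 (SE 0.0889, adjusted p = 8.02e-05) for Zfp36, and Dusp5, a phosphatase that inactivates ERK, fell by 1.17 (SE 0.104).

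Surface and matrix genes moved both ways. For comparison with the counts given here, 16.0% of all genes tested were called higher and 15.5% lower. Of 19 tested genes of the matrix and its proteases 2 rose and 9 fell, and 7 were called without NC replicate 2 or 3, 644 replicate 1 or 3 or 878 replicate 1. Plau, the urokinase that activates plasmin, was at 55.4, 48.2 and 58.6 CPM in the 878 libraries, against 199, 198 and 198 CPM in the NC libraries, with no overlap between the groups, and its log2 fold change was -1.88 (SE 0.103, adjusted p = 5.77e-06). Mmp13, a collagenase, was higher but uneven, at 7.70, 3.28 and 9.76 CPM in the 878 libraries, against 2.02, 1.57 and 0.867 CPM in the NC libraries, and replicate 2 was the lowest of its group. Its log2 fold change was 2.22 (SE 0.437, adjusted p = 0.00498). Of 22 tested Fc and phagocytic receptors 6 rose and 9 fell, and 9 were called without NC replicate 3. Sirpa, which receives the CD47 signal that restrains phagocytosis, was at 589, 581 and 602 CPM in the 878 libraries, against 365, 369.6 and 367 CPM in the NC libraries, and Cd300a, an inhibitory receptor for lipids, was at 70.2, 71.9 and 77.5 CPM in the 878 libraries, against 39.8, 40.8 and 40.9 CPM in the NC libraries. Both were higher in every 878 library than in any NC library, by 0.69 (SE 0.0622) and 0.85 (SE 0.0724) on the log2 scale. Of 19 tested integrins and adhesion genes 6 rose and 6 fell, a total of 12 that was 6 without NC replicate 1 and 5 without NC replicate 3. Cd44, the receptor for hyaluronan, was at 164, 152 and 179.99 CPM in the 878 libraries, against 249.7, 253 and 262 CPM in the NC libraries and fell by 0.62 (SE 0.0789).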
